A study of Arabidopsis thaliana with 22 samples.

Results

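In Arabidopsis thaliana, 363 regions lay inside islands of trimethylated lysine 27 of histone H3 (H3K27me3) in every leaf and inflorescence library and inside no H3K27me3 island of any apex library. They were found on 200-bp windows of the 5 nuclear chromosomes. A window was kept when all 4 leaf and inflorescence libraries covered it and none of the 4 apex libraries did, and adjacent kept windows were joined. Joined stretches of at least 400 bp were taken as regions. The H3K27me3 libraries covered 8722 stretches in all, counting every stretch under an island of at least 1 library. The regions were thus selected on the H3K27me3 islands of all 8 libraries, so their H3K27me3 values are given as a description and were not tested. At the edge of the width threshold, 86 regions were 400 bp wide and were included, and 190 stretches of 200 bp were left out.

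Chromatin immunoprecipitation with sequencing (ChIP-seq) had been done for H3K27me3 and for trimethylated lysine 4 (H3K4me3) in plants of the Landsberg erecta background grown in long days. Leaf was rosette leaf tissue of flowering wild-type plants. Apex t0 was the untreated main inflorescence apex of ap1 cal plants with the 35S::AP1-GR transgene, which pile up inflorescence meristems in a cauliflower-like head. Apex t2 was the same material taken 2 days after 10 µM dexamethasone with Silwet, which lets the AP1-GR fusion protein, made from a promoter active in most cells, enter the nucleus and start flower formation. Inflorescence was the wild-type main inflorescence without flowers older than stage 12. Each stage and mark had 2 biological replicates, 16 ChIP libraries in all. The split that chose the regions, apex against leaf and inflorescence, is also the split between the ap1 cal transgenic line and wild type, between 15 µg and 10 µg of chromatin, and between the control libraries used for island calling, so these cannot be told apart from a difference between the tissues. In bulk tissue, fewer cells carrying a mark and less of the mark per cell cannot be told apart either.

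H3K27me3 is laid down by Polycomb repressive complex 2 and is known for keeping developmental genes silent in tissues that do not need them. H3K4me3 is found near the start of transcribed genes and is laid down by Trithorax-group enzymes. In Arabidopsis, KNOX homeodomain genes and their BELL partners keep the shoot meristem undifferentiated and shape the inflorescence, and leaves are a well-known place of their Polycomb silencing.

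The H3K4me3 libraries held 6635471 to 23673881 reads in islands, and the H3K27me3 libraries 3779918 to 19379225. Within replicate 1 the H3K27me3 apex libraries held 9996825 and 10852646 island reads against 4995796 in leaf and 3779918 in inflorescence. Within replicate 2 the apex libraries held 16231141 and 13745836 against 18622099 and 19379225. The libraries lacking the islands were therefore the deeper ones in replicate 1 and the shallower ones in replicate 2. As a check of the tissue labels, H3K4me3 covered at least 200 bp in both replicates of 4 of 21 meristem and inflorescence genes in leaf, 18 in each apex stage and 10 in the inflorescence. The same count for 14 photosynthesis genes was 14 in leaf, 14 at t0, 13 at t2, and 14 in the inflorescence. Of 8 anther genes it was 0, 1, 2 and 1, of 6 root genes 2 at each stage, and of 6 seed and embryo genes 0 at each stage. The part of tissue make-up in the results below was not tested.

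The regions were short and lay in wide H3K27me3 islands. The median width of a region was 800 bp, the quartiles were 600 and 1200 bp, and together the regions covered 393.8 kb. The islands that held them had median widths of 4200 and 4600 bp in the leaf replicates, against 2200 bp for all islands of either library. In the inflorescence replicates the medians were 2400 and 4000 bp against 1600 and 2200 bp. An island was counted once for each region it held, and a wide island has more room for a region. The rule also cut each region at the island edges of all 8 libraries. Both widths are therefore in part set by the rule and the counting. Of the 363 regions, 147 were at least 1000 bp wide, 42 at least 2000 bp and 9 at least 4000 bp. Regions with H3K27me3 in all 8 libraries numbered 6253 with a median of 1600 bp, and regions of the opposite kind, present in every apex library and in no leaf or inflorescence library, numbered 419 with a median of 600 bp and none above 4000 bp. Chromosomes 1 to 5 held 113, 40, 84, 51 and 75 regions.

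**Figure D1:**
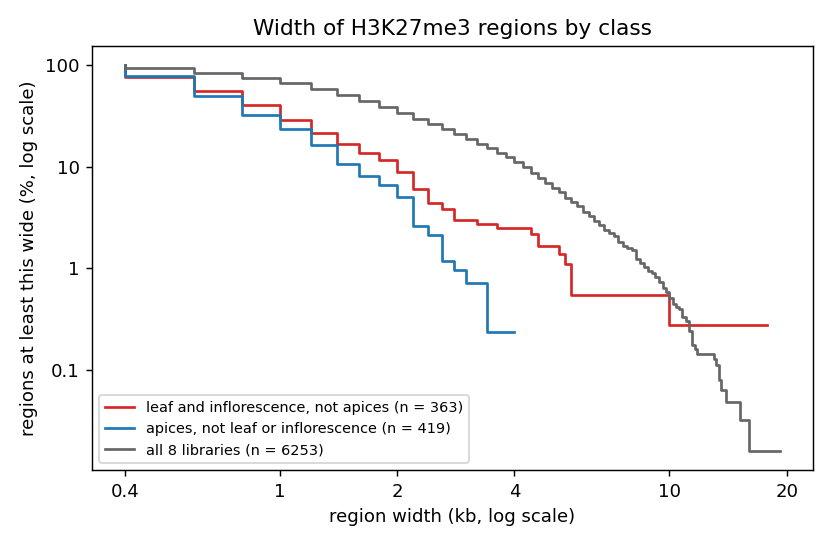
Share of regions at least as wide as the value on the x axis (kb, log scale; y axis in %, log scale) for the 363 regions absent from the apices, the 419 regions present only in the apices and the 6253 regions present in all 8 libraries. The first class has a median of 800 bp and a thin tail that reaches 17800 bp, while the opposite class ends at 4000 bp.

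Genes and the spaces between them held about equal numbers of regions. A region overlapped at least 200 bp of a protein-coding gene body in 166 cases (45.7%), clipped a gene by less in 33, and met no gene body in 164 (45.2%). Of the regions present only in the apices 45.8% met no gene, and of those marked in all 8 libraries 18.1%. Gene bodies made up 43.3% of the length of the regions, 42.9% of that of the apex ones and 60.5% of that of the constant ones, so the share outside genes was near that of the opposite class. Among the 164 regions outside genes, the nearest gene body was a median of 1096.5 bp away, and 121 lay within 2 kb of one. The gene table used here gives gene bodies without strand, exons or introns, so the place of a region inside a gene was not resolved further.

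More regions were a part of a larger stretch of H3K27me3 than were the whole of one. The stretch shared by all leaf and inflorescence libraries was the region itself in 158 cases (43.5%), and over all 363 regions the median region was 62.5% of its shared stretch. An H3K27me3 island of an apex library directly abutted the region on both sides in 43 cases, on 1 side in 163 and on neither side in 157. Within 2 kb the counts were 105, 181 and 77. For the leaf and inflorescence islands that held the regions, the fold over control, the authors' own value per island, had medians of 4.16 and 3.99 in the leaf replicates against 3.55 and 3.17 for all islands of those libraries. In the inflorescence replicates the medians were 3.46 and 3.18 against 3.71 and 2.96. Control reads per kb in those islands had medians of 0.96 to 0.98 times that of all islands of the same library. In 71 regions an apex library had an H3K4me3 island, and in the other 292 the apex tables listed no island of either mark, so those tables hold no apex reads there, ChIP or control. Whether these sequences, the 17800-bp region included, can be read at all in the apex libraries was not tested.

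The widest regions fell into 2 kinds, by whether a gene named for them carried H3K4me3 on its body. On chromosome 3 the 17800-bp region chr3:7719001-7736800 held the whole of 5 genes, AT3G21920, AT3G21930, AT3G21940, AT3G21945 and AT3G21950, and the 10000-bp region chr3:7751201-7761200 held the whole of AT3G22000, AT3G22010, AT3G22020, AT3G22022 and AT3G22030. These regions and 2 smaller ones spanned 45.8 kb inside single leaf and inflorescence H3K27me3 islands of 48000 to 58400 bp (the 2 smaller ones had islands of their own in leaf replicate 1), and around the 2 wide ones the folds ran from 4.76 to 6.13. No library of any stage had an H3K4me3 island in any of the 4 regions. A pair of 5600-bp regions covered over 80% of AT3G28290 and AT3G28300, both annotated as AT14A, known as an integrin-like protein. The genes of this pair share a name and lie close together, and the control reads of their islands in replicate 2 stood at 0.454 to 0.463 times the median of all islands, so their values are uncertain; whether reads were split between near-identical copies was not tested. A 5400-bp region covered all of AT3G29255. No H3K4me3 island was listed on these 3 genes at any stage. AT1G31163, with 82.2% of its body in a 4400-bp region, had no H3K4me3 island on its body either, although the region held 200 bp of H3K4me3 island in each apex library and 400 bp in leaf replicate 2.

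The other wide regions each met a gene with H3K4me3 on its body, although the 3600-bp region of LRP1 itself held none. They were the 5200-bp region of BLH9 (chr5:395601-400800), the 4600-bp region of KNAT2 (chr1:26577601-26582200), the 4600-bp region of AT5G61110 and AT5G61120 (chr5:24581201-24585800), and the 3600-bp region of LRP1 (chr5:3984201-3987800). Regions also came in groups: with gaps of up to 20 kb, 159 of them formed 64 groups, and the largest had 8 regions in 48.0 kb around AT2G02610 to AT2G02700 on chromosome 2.

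The regions overlapped 171 genes by at least 200 bp, 0.623% of the 27444 protein-coding genes of the table. For 85 of them at least 50% of the body lay in regions, and for 20 all of it. In both replicates of leaf and of inflorescence each of the 171 genes had at least 200 bp of H3K27me3, as the rule required. In the apices 101 of them had less than that in each of the 4 libraries, while 49 still had it in both replicates of apex t0 and 48 in both of apex t2, on parts of the body outside the regions. Genes of 6 lists of developmental and hormone genes were among the 171: 5 of 21 meristem and inflorescence genes (KNAT2, KNAT6, BLH9, BLH8, LSH3), 3 of 8 AINTEGUMENTA-like genes (ANT, AIL5, AIL6), 2 of 25 flowering time genes (SOC1, AGL42), 1 of 17 floral organ identity genes (FUL), 1 of 17 auxin synthesis and transport genes (LAX2) and 1 of 12 gibberellin oxidases (GA2OX4). No region lay on any of the 10 D-type cyclins, 9 growth-regulating factors, 15 organ polarity and YABBY genes, 16 cytokinin genes, 14 photosynthesis genes, 8 anther genes, 6 root genes or 6 seed and embryo genes. In these lists, in that order, 2, 1, 10, 4, 1, 4, 5 and 6 genes had at least 200 bp of H3K27me3 in both leaf replicates. Of the 21 meristem and inflorescence genes 19 had it. A region needs H3K27me3 in leaf and inflorescence, so lists with few such genes could hardly be met, and the lists are not compared.

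The question the second mark answers is whether these regions carried H3K4me3, and at which stage. In the replicate 1 libraries H3K4me3 islands covered at least 200 bp of 23 regions in leaf, 61 at t0, 60 at t2 and 45 in inflorescence. In replicate 2 the counts were 44, 69, 62 and 49. Both replicates thus put leaf lowest and the apices highest, but with islands of fold 2 or more replicate 2 gave 38 regions in leaf and 32 in inflorescence, and leaf was no longer lowest. The leaf library with the higher count was also the deepest H3K4me3 library, at 23673881 island reads, and leaf replicate 1 was the shallowest, at 6635471; the part of depth in the counts was not tested. Counted in both replicates, 20 regions (5.51%) carried H3K4me3 in leaf, 59 (16.3%) at t0, 59 (16.3%) at t2 and 39 (10.7%) in inflorescence. For regions with H3K27me3 in all 8 libraries the shares were 9.39%, 13.7%, 13.2% and 11.2%. For regions present only in the apices they were 22.4%, 20.8%, 21.5% and 22.4%, higher at every stage than for the regions absent from the apices.

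**Figure D2:**
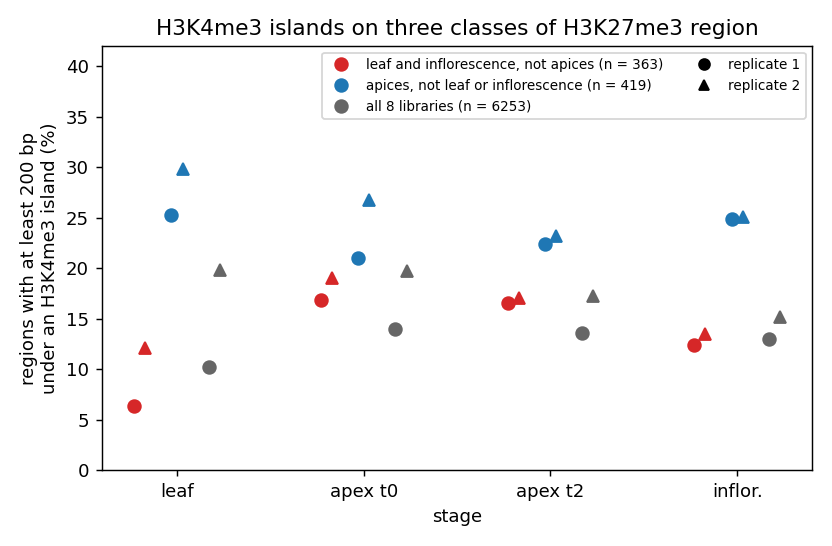
Percent of regions with at least 200 bp under an H3K4me3 island in each of the 8 H3K4me3 libraries (circles, replicate 1; triangles, replicate 2), for the same classes of H3K27me3 region as in the plot of widths. The regions absent from the apices (red) stand at 6.34% and 12.1% in leaf and between 16.5% and 19.01% in the 4 apex libraries.

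Most regions lacked H3K4me3 throughout: 279 of 363 (76.9%) had no H3K4me3 island in any of the 8 libraries, and 16 (4.41%) had one in all 8. The constant regions were close to this, with 71.5% and 5.37%. H3K4me3 lay almost wholly on regions with genes. Of the 166 regions with a gene, 53 (31.9%) had it in all 4 apex libraries, against 2 of the 164 regions outside genes (1.22%). Among constant regions with a gene, 14.5% had it in all 4 apex libraries, and among regions present only in the apices with a gene 40.4%. Apex H3K4me3 was thus not more frequent here than in the opposite class, which kept H3K27me3 in the apices. Regions with H3K4me3 in all 4 apex libraries and in no leaf library numbered 20 (5.51%, against 3.31% of the constant and 0.955% of the apex-only regions). Of these, 8 also had it in both inflorescence replicates, among them the regions of ANT, KNAT6, ZFHD1 and LRP1. A further 8 had it in neither inflorescence replicate, among them those of AIL6, LAX2, LSH3, REM1 and CYP706A3. The opposite pattern, H3K4me3 in both leaf replicates and in no apex library, was found for 2 regions, 1 on AT2G04495 and 1 that met no gene by 200 bp. No region gained or lost H3K4me3 in both replicates between apex t0 and apex t2.

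KNAT6 and KNAT2 are class I KNOX homeobox genes that act in the shoot meristem and at organ boundaries. KNAT6 was met by regions chr1:8297401-8298200 and chr1:8298801-8301600, and another lay at chr1:8304401-8306600 outside its body. Its H3K27me3 islands covered 100% of the body in both leaf replicates, 18.5%, 19.4%, 19.4% and 8.33% in the 4 apex libraries, and 97.04% and 86.0% in the inflorescence. Its H3K4me3 was 0 RPM (reads per 1000000 of those lying in islands on the tested genes) in both leaf libraries, 83.1 and 94.3 at t0, 87.8 and 87.2 at t2, and 40.1 and 69.1 in the inflorescence. The 4 apex values were all above the inflorescence values, and no leaf island was listed. KNAT2 had 71.9% of its body in a region, and its H3K4me3 was 0 RPM in both leaf libraries, 106 and 105 at t0, 106 and 102 at t2, and 38.2 and 62.1 in the inflorescence. Again the apices lay above the inflorescence and leaf had no island. For both genes limma called H3K4me3 higher in the apices than in leaf and inflorescence (adjusted p = 0.00228 for KNAT6 and 0.00187 for KNAT2) and higher in the inflorescence than in leaf (adjusted p = 0.00211 and 0.00142). Missing leaf islands enter both comparisons as 0 RPM in each leaf replicate, so none of these p-values is given as support.

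**Figure D3:**
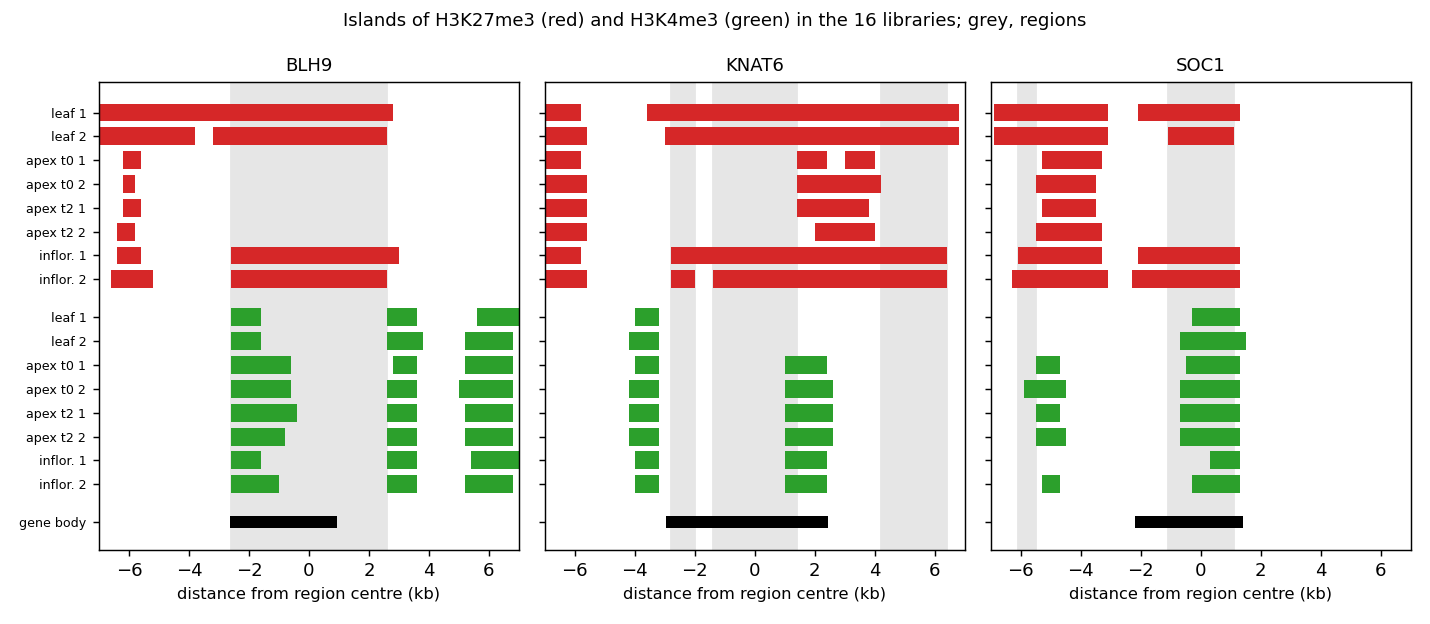
Islands of H3K27me3 (red) and H3K4me3 (green) in the 16 libraries around 3 regions, as distance in kb from the centre of the widest region on BLH9, KNAT6 and SOC1; grey bands are regions and the black bar is the gene body. At BLH9 and SOC1 no apex library has an H3K27me3 island on the gene body, and at KNAT6 short apex islands cover 8.33% to 19.4% of it.

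BLH9, also called REPLUMLESS or PENNYWISE, is a BELL homeodomain protein that pairs with KNOX proteins in the inflorescence stem and meristem. Its region took in 99.04% of the gene body. H3K27me3 stood at 467 and 468 RPM in leaf, 308 and 189.5 in the inflorescence and 0 in the 4 apex libraries. H3K4me3 was present at every stage, at 34.6 and 51.3 RPM in leaf, 130 and 114 at t0, 121 and 109 at t2, and 88.6 and 98.5 in the inflorescence. The apex values all lay above the others, and its H3K4me3 islands covered 50.6% to 61.8% of the body in the apices, 28.1% in both leaf libraries, and 28.1% and 45.0% in the inflorescence. On the log2(RPM + 1) scale the apices were higher than leaf and inflorescence by 0.90 ± 0.14 (SE; limma adjusted p = 0.0177). That call was lost when either apex t0 replicate, either apex t2 replicate or inflorescence replicate 1 was left out. The inflorescence exceeded leaf by 1.13 ± 0.20 (SE; limma adjusted p = 0.0358), and this call was lost without any one library other than leaf replicate 2.

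BLH8, or POUND-FOOLISH, is the closest relative of BLH9 and overlaps with it in function. Region chr2:11921001-11923200 covered 54.5% of its body, and chr2:11924601-11926000 clipped it by under 200 bp. Its H3K4me3 values were 0 and 10.1 RPM in leaf, 42.1 and 61.7 at t0, 57.4 and 61.0 at t2, and 0 and 26.02 in the inflorescence. All apex values were above the rest. BLH8 lacked an island in 1 replicate of leaf and of inflorescence, so it entered the test through the apices alone, where it was high. Its test is therefore not given as support. The limma test did not call the difference (adjusted p = 0.152), and with islands of fold 2 or more it was called. LSH3, an ALOG-family protein of organ boundaries, was covered over 50.2% by a region. Its H3K4me3 was 27.6 and 41.6 RPM in leaf, 115 and 88.3 at t0, 83.8 and 68.3 at t2, and 39.6 and 45.0 in the inflorescence. The apices were higher by 1.19 ± 0.17 log2 units (SE; adjusted p = 0.0124), with islands over 56.4% to 83.3% of the body in the apices and 44.7% in leaf and inflorescence; leaving out replicate 1 of apex t0 or of apex t2 ended the call. KNAT1, another class I KNOX gene, which shapes the inflorescence stem, was clipped by under 200 bp, and that region and 4 more formed a group in chr4:5146201-5159400. None of the 5 had an H3K4me3 island in any library. Over the whole list of 21 meristem and inflorescence genes, 18 were tested for H3K4me3, 11 were called higher in the apices than in leaf and inflorescence, and 0 lower, beside 3.08% and 4.37% of all tested genes. Marked in both replicates were 18 of the 21 genes in each apex stage, 10 in the inflorescence and 4 in leaf. Some of the 18 thus entered the test through the apices alone, and the count of 11 is not given as support. In leaf 4 of the 21 genes were marked in both replicates, so the size of the list's median fold change is set by the pseudocount and is not given.

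The AINTEGUMENTA-like genes encode AP2-domain transcription factors that drive organ initiation and growth. Only short regions met them, covering 20.7% of the ANT body (chr4:17739601-17740200), 8.13% of AIL6 (chr5:3317201-3317600) and 10.8% of AIL5 (chr5:23253201-23253600). ANT had no apex H3K27me3 island on its body, whereas AIL6 and AIL5 kept apex islands over 32.5% to 36.6% and 40.8% to 83.8% of theirs. H3K4me3 on ANT was 0 RPM in both leaf libraries, 102 and 124 at t0, 120 and 119 at t2, and 57.7 and 78.1 in the inflorescence. For AIL6 it was 0 in both leaf libraries, 61.0 and 97.4 at t0, 93.3 and 119 at t2, and 29.8 and 50.5 in the inflorescence. In both genes the apices were above the inflorescence and leaf had no island. AIL5 had no leaf island either, but its inflorescence values of 25.6 and 39.2 RPM overlapped the apex range of 32.3 to 80.7. The limma test called all 3 higher in the apices than in leaf and inflorescence (adjusted p = 0.00166 for ANT, 0.00271 for AIL6 and 0.0144 for AIL5), and the call on AIL5 was lost without apex t0 replicate 2, without either apex t2 replicate, and with islands of fold 2 or more. Of the 8 genes of the list 4 were tested, and all 4 were called higher in the apices, beside 3.08% and 4.37% of all tested genes. No gene of the list was marked in both leaf replicates, so the size of the list's median log2 fold change is set by the pseudocount and is not given. Missing leaf islands enter the fit as 0 RPM. Neither the count of 4 nor the p-values of ANT, AIL6 and AIL5 are therefore given as support.

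**Figure D4:**
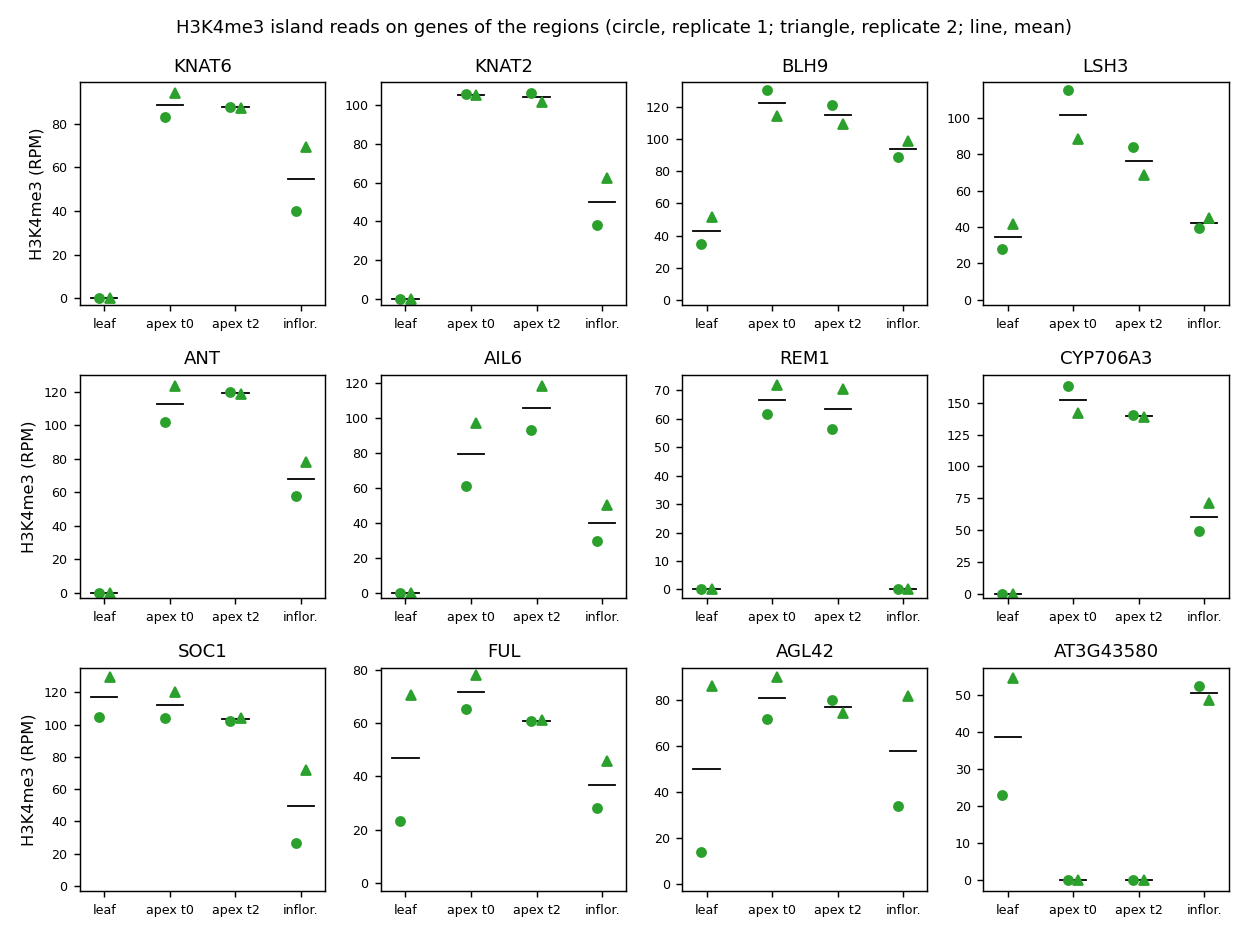
H3K4me3 level (RPM, island reads on the gene body) of 12 genes of the regions in the 8 H3K4me3 libraries (circle, replicate 1; triangle, replicate 2; line, mean of both). KNAT6, KNAT2, ANT, AIL6, REM1 and CYP706A3 have no island in leaf, SOC1 is about as high in leaf as in the apices, and AT3G43580 has no island in the apices.

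For 3 MADS-box genes of flowering and fruit the H3K4me3 difference was not called. SOC1, an integrator of floral signals, AGL42, a member of the same clade, and FUL, which acts in the inflorescence meristem and the fruit, were covered over 60.8%, 55.5% and 51.3% of their bodies. SOC1 (chr2:18808601-18810800) had no apex H3K27me3 island on its body, against 418 and 111 RPM in leaf and 292 and 249 in the inflorescence. Its H3K4me3 was 105 and 130 RPM in leaf, 104 and 120 at t0, 103 and 104 at t2, and 26.6 and 72.0 in the inflorescence. Leaf and apices overlapped, and the inflorescence values lay below both. The difference between apices and leaf plus inflorescence was 0.58 ± 0.30 log2 units (SE; limma adjusted p = 0.353), and without inflorescence replicate 2 it was 0.93 and was called. Islands covered 44.2% and 58.7% in leaf, 49.7% to 55.2% in the apices, and 27.6% and 44.2% in the inflorescence.

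FUL carried both marks in leaf, with 731 and 421 RPM of H3K27me3, and 252 and 228 RPM of H3K27me3 in the inflorescence. Its H3K4me3 was 23.1 and 70.5 RPM in leaf, 65.2 and 77.8 at t0, 60.8 and 61.1 at t2, and 28.0 and 45.9 in the inflorescence. Leaf replicate 2 fell inside the apex range, and the difference of 0.77 ± 0.36 log2 units was not called (SE; limma adjusted p = 0.296). AGL42 likewise gave 13.9 and 86.4 RPM in leaf, 71.9 and 90.2 at t0, 80.2 and 74.3 at t2, and 33.9 and 81.9 in the inflorescence, with replicate 2 of leaf and of inflorescence inside the apex range, and a difference of 0.86 ± 0.58 log2 units (SE; limma adjusted p = 0.472). FUL islands covered 31.3% to 36.5% of the body in the apices and 20.9% to 31.3% elsewhere, and AGL42 islands 30.3% to 39.3% and 15.1% to 34.2%. Without leaf replicate 2 both genes were called higher in the apices. Over the 25 flowering time genes, 19 were tested, 4 were called higher in the apices and 1 lower. Over the 17 floral organ identity genes 11 were tested, 2 called higher and 0 lower. Of all tested genes, 3.08% were called higher and 4.37% lower. How many genes of these lists entered the test through the apices alone was not counted, so these counts are not given as support. The median log2 fold changes of these lists were 0.46 and 0.77, beside a median under 0.01 in size over all tested genes; missing islands enter them as 0 RPM.

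Genes of hormone transport and turnover were few. LAX2, an auxin influx carrier, had a region over 32.4% of its body (chr2:9035801-9036800), and no apex H3K27me3 island. Its H3K4me3 was 0 RPM in both leaf libraries, 85.0 and 103 at t0, 76.7 and 110 at t2, and 0 and 34.4 in the inflorescence. The apex values all lay above the others. LAX2 too entered the test through the apices alone, and its call was lost without any one of the leaf or apex libraries, with a pseudocount of 0.5 and with no filter on marked genes. GA2OX4, an enzyme that inactivates gibberellin, had weak H3K4me3 found only in the apex libraries, at 13.9 and 8.74 RPM in apex t0 and 10.9 and 10.6 in apex t2. It entered the test through the apices alone, so no p is given for it, and with islands of fold 2 or more it was not tested. Of the 17 auxin genes 13 were tested, with 2 higher and 2 lower in the apices, and of the 12 gibberellin oxidases 8 were tested, with 3 higher and 0 lower, beside 3.08% and 4.37% of all tested genes. Of the oxidases 3 were marked in both replicates of leaf and 2 in both of the inflorescence. Some of the 8 thus entered through the apices alone, and their calls are not given as support. For the auxin genes, entry through the apices alone was not counted, and their calls are not given as support either. AT5G61120 lay on a 4600-bp region with AT5G61110, which had no H3K4me3 island. H3K4me3 on AT5G61120 was 0 RPM in both leaf libraries and 0 and 24.2 in the inflorescence. At t0 it was 22.8 and 36.4, and at t2 29.2 and 39.7. The limma test gave no call (adjusted p = 0.0941). AT5G61120 also entered the test through the apices alone, so its test is not given as support. LRP1, a SHI-family transcription factor known from root and shoot primordia, had its 3600-bp region without H3K4me3 and a second region of 600 bp with it. On its body H3K4me3 was 0 and 9.14 RPM in leaf, 144 and 116 at t0, 127 and 117 at t2, and 32.0 and 57.0 in the inflorescence. It was called higher in the apices (adjusted p = 0.0431), and leaving out any one of the apex or inflorescence libraries, or a pseudocount of 0.5, ended the call.

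Among region genes with a symbol and outside the lists, the rule for named genes chose REM1 and CYP706A3 by their fitted H3K4me3 difference, whose size rests on missing islands in leaf. REM1 encodes a B3-domain protein named for the reproductive meristem. Its H3K4me3 was 61.6 and 71.8 RPM in apex t0 and 56.3 and 70.7 in apex t2, with no island in the leaf and inflorescence libraries. It entered the test through the apices alone, where it was high, so its p is not given as support; the same holds for its call as lower in the inflorescence than in apex t2, which was lost when any one library was left out. CYP706A3, a cytochrome P450 known from flowers, had 0 RPM in leaf, 163 and 142 at t0, 140 and 138 at t2, and 49.8 and 71.7 in the inflorescence (limma adjusted p = 0.00108). The leaf values of CYP706A3 are missing islands, so this p is not given as support. Apex H3K27me3 islands still covered 42.03% to 63.0% of its body.

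Among genes with a symbol, those lying most fully inside regions were of several kinds. Besides BLH9 they were NIP3;1, an aquaporin-family channel (91.2% of the body), ZFHD1, a zinc-finger homeodomain protein (82.4%), PROPEP3, the precursor of a defence signalling peptide (77.1%), CYP96A9, a cytochrome P450 (76.1%), and CLE8, a small signalling peptide (75.1%). NIP3;1, PROPEP3 and CLE8 had no H3K4me3 island in any library. ZFHD1 had 0 RPM of H3K4me3 in leaf, 79.9 and 68.9 at t0, 77.8 and 75.9 at t2, and 39.3 and 47.0 in the inflorescence. CYP96A9 had 0 in leaf and 95.5, 84.3, 85.3 and 98.8 in the apex libraries, and its inflorescence values of 68.4 and 83.8 came just below them. Both were called higher in the apices than in leaf and inflorescence (limma adjusted p = 0.00228 and 0.00187). Neither had a leaf island, so these p-values are not given as support.

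Across the genome 17588 genes were tested for H3K4me3 with limma, and 78 of the 171 region genes were among them; a gene was tested when islands covered 200 bp of it in both replicates of at least 1 stage. The other 93 had too little H3K4me3, and 79 of the 171 had no H3K4me3 island in any library. Among the 78, 20 passed the filter through the apex stages alone and 2 through leaf or inflorescence alone. A gene of the first kind had to be high in the apices, and a missing island is no measured zero. In the mean of the apex stages against the mean of leaf and inflorescence, 23 region genes were called higher (29.5% of those tested), beside 3.08% of all tested genes, and 1 was called lower (1.28%), beside 4.37%. Of the 23, 6 had passed the filter through the apices alone (GA2OX4, AT1G70950, AT2G18550, LAX2, AT3G27475 and REM1), so the share called higher is in part set by the filter and is not given as support. The 1 gene called lower had passed it through leaf or inflorescence alone. In RPM, all 4 apex libraries lay above all 4 leaf and inflorescence libraries for 37 of the 78 (background 6.00%). The 20 genes that passed the filter through the apices alone are among the 78, and their number among the 37 was not counted. This count is therefore not given as support either. Of the 54 genes that were not called, 48 had a fold change above 0. Leaving out 1 H3K4me3 library at a time moved the number of called region genes between 14 and 46. It was 46 without leaf replicate 2, 14 without either apex t2 replicate and 15 without either apex t0 replicate. Each of these fits leaves 1 library in a stage. The calls on KNAT6, KNAT2, ANT, AIL6, REM1, CYP706A3, ZFHD1, CYP96A9, ASE1, AT1G02810, AT5G64910 and AT3G43580 held in every fit. The first 8 of these had no leaf island and AT3G43580 no apex island, so missing islands put their replicates at the same floor. That their calls held is not given as support. The calls on BLH9, LSH3, AT4G30470 and GPT1, with islands in all 8 libraries, did not hold in every fit. The log2 difference ran from 0.77 to 1.04 for BLH9 and from 1.04 to 1.33 for LSH3.

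**Figure D5:**
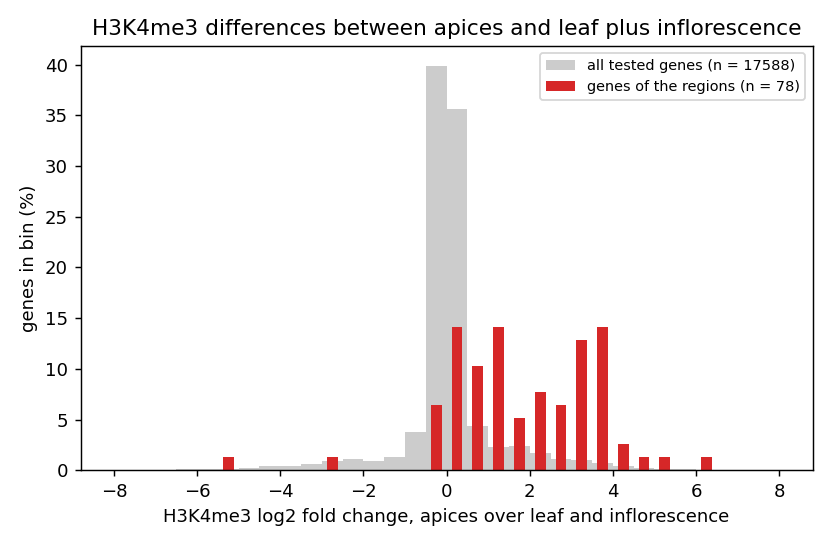
Distribution of the H3K4me3 log2 fold change, apices over leaf and inflorescence, in bins of 0.5, as percent of all 17588 tested genes (grey) and of the 78 tested region genes (red). The region genes lie mostly above 0, with 71 of 78 positive; values of genes without an island in some library depend on the pseudocount of 1 RPM.

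The median H3K4me3 log2 fold change was 1.77 over the 78 genes and under 0.01 in size over all tested genes, but a missing island enters it as 0 RPM, and with pseudocounts of 0.5 and 5 the median was 2.02 and 1.13. Over the 28 region genes with an H3K4me3 island in all 8 libraries the median was 0.42 and 23 of 28 were above 0, beside a median of -0.01 over the 14786 tested genes with islands in all 8. Of these 28, 4 were called higher: BLH9, LSH3, AT4G30470 and GPT1, a plastid glucose-6-phosphate translocator. GPT1 went from 40.4 and 54.6 RPM in leaf and 60.1 and 71.4 in the inflorescence to 77.6 to 85.6 in the apices, a difference of 0.53 ± 0.11 log2 units (SE; adjusted p = 0.0481), with islands over 42.8% of the body in the apices, 28.5% and 35.7% in leaf, and 28.5% and 35.7% in the inflorescence; leaving out any library but leaf replicate 2 ended that call. The 1 gene called lower, AT3G43580, named because it was alone, had 22.9 and 54.6 RPM in leaf, 52.6 and 48.8 in the inflorescence and no apex island (limma adjusted p = 0.0037). It passed the filter through leaf or inflorescence alone, where it was high, so its calls here and below are not given as support. Neither mark had an apex island on this gene. AT2G04495 had 18.1 and 58.0 RPM in leaf and no H3K4me3 island elsewhere, and its difference was not called (limma adjusted p = 0.051). It entered the test through leaf alone, so its test is not given as support either.

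Between single stages, most calls involved leaf. From leaf to apex t0, 19 region genes were called higher (background 3.80%) and 2 lower (background 4.25%), AT2G04495 and AT3G43580. Of the 78 tested, 20 had passed the filter through the apices alone and 2 through leaf or inflorescence alone. Both counts can therefore be in part set by the filter and are not given as support. Between leaf and inflorescence, both wild type, 13 were higher in the inflorescence (background 2.15%) and 2 lower (background 1.93%), AT2G04495 and ORP2A. The 13 were KNAT6, KNAT2, BLH9, ANT, AIL5, AIL6, ZFHD1, ASE1, CYP96A9, CYP706A3, AT1G02810, AT1G66540 and AT5G64910. These comparisons share the leaf libraries. Among the 13, KNAT6, KNAT2, ANT, AIL5, AIL6, ZFHD1, CYP96A9 and CYP706A3 had no leaf island, and AT2G04495 had H3K4me3 islands in leaf alone. The filter let each of these in only through stages where it had islands, and missing islands enter the fit as 0 RPM. The counts of 13 and 2 are therefore not given as support. Between apex t2 and the inflorescence 1 was higher (background 0.756%) and 1 lower (background 0.421%), AT3G43580 and REM1, and neither call held when any one library was left out; with the replicate number as a block only REM1 was called. Between apex t0 and apex t2 limma called 0 region genes and 0 of all tested genes in either direction (background 0.00%); at an unadjusted p under 0.05 there were 0 of the 78 and 155 of all tested genes, and the 2 replicates a stage limit the size of change that could be detected.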

How the data were processed

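ChIP-seq islands of H3K4me3 and H3K27me3 from 16 libraries (4 stages, 2 replicates) were used as deposited; the 6 input samples were not used here. Per the submitters' processing notes the authors used SICER 1.1, BWA 0.6.2-r126, bedtools 2.17.0-97, CASAVA 1.8.2, Picard 1.93 and SAMtools 0.1.19 with TAIR10. Window, gap and threshold settings of SICER, which joins enriched windows into islands, are not given in the sources used here. The deposited tables have 8 columns without a header: position, ChIP and control read counts, fold over control, and a p-value before and after adjustment. Islands were called per library, so reads outside islands are unknown, and a missing island is no measured zero. Total read numbers were not given, and counting error was not estimated separately.

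Genes were taken from a RefSeq table of assembly TAIR10.1, whose offset against the islands was checked in 110 bins of 1 Mb (best at 0 in 110). No gene coordinate is printed; region positions are 1-based on TAIR10. Each island's ChIP reads were allotted to a gene in proportion to the part of the island lying on the gene body and then added up, so overlapping or neighbouring genes can share an island, and the data carry no strand. Values were scaled to reads per 1000000 island reads on tested genes with a trimmed mean of log ratios (30% and 5% trimmed), and log2(RPM + 1) was fitted with limma 3.58.1 (R 4.3.3, mean trend, robust) with stage as the term and 4 residual degrees of freedom, for H3K4me3 only. No count model was run on these values, which are allotted parts of island reads and not whole counts. P-values are two-sided and adjusted by Benjamini-Hochberg over all tested genes, with a threshold of 0.05. Fold changes of single genes are printed only where all libraries compared had an island; medians over several genes take a missing island as 0 RPM. The fitting code was tested on simulated data.

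Replicate numbers pair the samples: per the labels' protocols replicate 2 differed from replicate 1 in sonication, antibody lot, library kit and sequencer, and deviations of same-numbered libraries correlated at 0.231 to 0.445 in the 6 pairs of stages. Members and gene lists were chosen with earlier results of these data known. Named genes were region genes in the lists, genes of the 10 widest regions, up to 8 per direction with a symbol and the largest called difference between apices and leaf plus inflorescence, and the 6 with a symbol and the largest share of the body inside regions; AT3G43580, AT2G04495, ASE1, GPT1, AT4G30470, AT1G02810, AT1G66540, AT5G64910 and ORP2A were named after their values were seen. Pseudocount, scaling, filters, island fold, overlap, minimum width, the replicate block and leaving out each library were varied.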

Additional observations from a re-analysis of the deposited data

How the results depend on the processing

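The number of regions was 553 with a minimum width of 200 bp and 202 with 800 bp, and with 1 H3K27me3 library left out it ranged from 366 to 792, the highest without inflorescence replicate 1, the library with the fewest island reads. Asking for at least 50% of a region to lie under H3K4me3 in both replicates gave 3.31% for leaf, 11.3% for apex t0, 11.02% for apex t2 and 6.61% for the inflorescence. With the replicate number as a block, the genes called across the genome numbered 2079 in place of 1310 for apices against leaf and inflorescence, 2390 in place of 1416 for apex t0 against leaf, 127 in place of 207 for inflorescence against apex t2, and 968 in place of 717 for inflorescence against leaf; the region genes called were 28, 26, 1 and 17 in place of 24, 21, 2 and 15, and no region gene called without the block was lost but 1 in inflorescence against apex t2. For that comparison a pseudocount of 5 gave 125 genes, no filter gave 53 (1 region gene), and islands of fold 2 or more gave 9 region genes. Leaving out 1 library gave 422 to 2924 genes (14 to 46 of the regions) for apices against leaf and inflorescence, 601 to 3090 (12 to 47) for apex t0 against leaf, 0 to 2 (0 of the regions) for inflorescence against apex t2, 69 to 1828 (8 to 34) for inflorescence against leaf, and 0 for apex t2 against apex t0. The highest counts came without leaf replicate 2, except in inflorescence against apex t2, where 2 genes were called without inflorescence replicate 1 and 0 without any other; the lowest came without apex t2 replicate 2 in the first comparison, without apex t0 replicate 1 in the second and without either apex t2 replicate in inflorescence against leaf. The causes were not tested. For the 19 tested genes chosen by the naming rule, in apices against leaf and inflorescence alone, no value changed sign under these alternatives, 28 lost and 7 gained the call, and 230 kept their side of the threshold; for genes named after their values were seen, only the block and leaving out libraries were looked at. With 2 replicates a stage and island tables alone, small differences and marks below the island threshold cannot be seen.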

Other observations

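Further region genes with known roles, chosen after their values were seen, were covered over smaller parts of their bodies. PXY, the receptor kinase of vascular stem cells (15.4% of the body in regions), had H3K4me3 of 104 and 136 RPM in leaf, 163 and 199 in the inflorescence and 199 to 217 in the apices, without a call (limma adjusted p = 0.0948; 0.0162 with the replicate number as a block). ERL2, a receptor kinase of the ERECTA family (19.5%), had 0 and 34.8 RPM in leaf, 33.8 and 72.6 in the inflorescence and 102 to 142 in the apices, also without a call (adjusted p = 0.196). RGL3, a DELLA repressor of gibberellin responses (26.6%), had 80.1 and 112 RPM in leaf, 115 and 103 in the inflorescence and 115 to 159 in the apices (adjusted p = 0.213). In PXY and ERL2 the lowest apex library lay above the highest library of the other tissues, and in RGL3 it lay just below it.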
